A study of Ictalurus punctatus x Ictalurus furcatus and Ictalurus furcatus and Ictalurus punctatus with 8 samples.

Results

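The cellular retinol-binding genes ret2 and rbp5 were followed through the livers of 4 genetic types of catfish. They were picked by name, as the rows of the deposited expression table whose gene name is ret2 or rbp5, and they are 2 of its 13444 genes. The names were chosen with earlier results of these data known, so the ranks of ret2 among all genes given below are descriptive. Both passed the filter on low values, a type mean above 1 CPM (reads scaled to a common total per library) in any of the types, which left 13420 genes. The types were channel catfish (PC, Ictalurus punctatus), blue catfish (PB, Ictalurus furcatus) and their reciprocal hybrids, F1BC from a blue catfish mother and a channel catfish father, and F1CB from a channel catfish mother and a blue catfish father. Livers of 2 fish per type were taken at 12 months of age, which gave 8 libraries. The types were kept in separate tanks, with no number of tanks per type stated, so type and tank cannot be told apart.

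Vitamin A travels in the blood and is stored in the liver, and inside cells its alcohol form, retinol, is held by small soluble binding proteins. Retinol-binding protein 2, the protein that ret2 is described as encoding, is best known in mammals from the absorptive cells of the small intestine, where it passes newly absorbed retinol to the enzymes that esterify it. The protein encoded by RBP5 belongs to the same family of cellular retinol carriers and is known in humans from the liver and the kidney.

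ret2 was at 0.719 to 2.45 CPM in 5 of the 8 livers and high in both F1BC livers, while rbp5 was abundant in every liver. In the F1BC livers ret2 averaged 147 ± 19.6 CPM (SD, n = 2), which was 186 times the PC mean, 20.02 times the PB mean and 72.2 times the F1CB mean. All these differences passed the test. rbp5 was highest in PB, at 942 ± 124 CPM (n = 2), and 1.99 times its F1BC mean, and no difference of rbp5 between types passed.

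ret2 (ENSIPUG00000008698, described as retinol-binding protein 2, with a listed transcript of 554 bases) was measured at 0.728 and 0.851 CPM in the PC livers. The PB livers had 13.9 and 0.719 CPM. The F1BC livers had 161 and 133 CPM, and the F1CB livers 2.45 and 1.61 CPM. The lower F1BC liver was thus 9.53 times the highest of the other 6 libraries, which was PB replicate 1. Both F1BC livers lay above all other libraries for 161 of the 13420 genes (1.2%), and of the genes tested ret2 had the widest such gap on the log2 scale (the second widest without PC replicate 2). The PB livers differed from each other by 19.4 times, more than the livers of any other type did for this gene, and they lay on either side of all PC and F1CB livers.

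**Figure D1:**
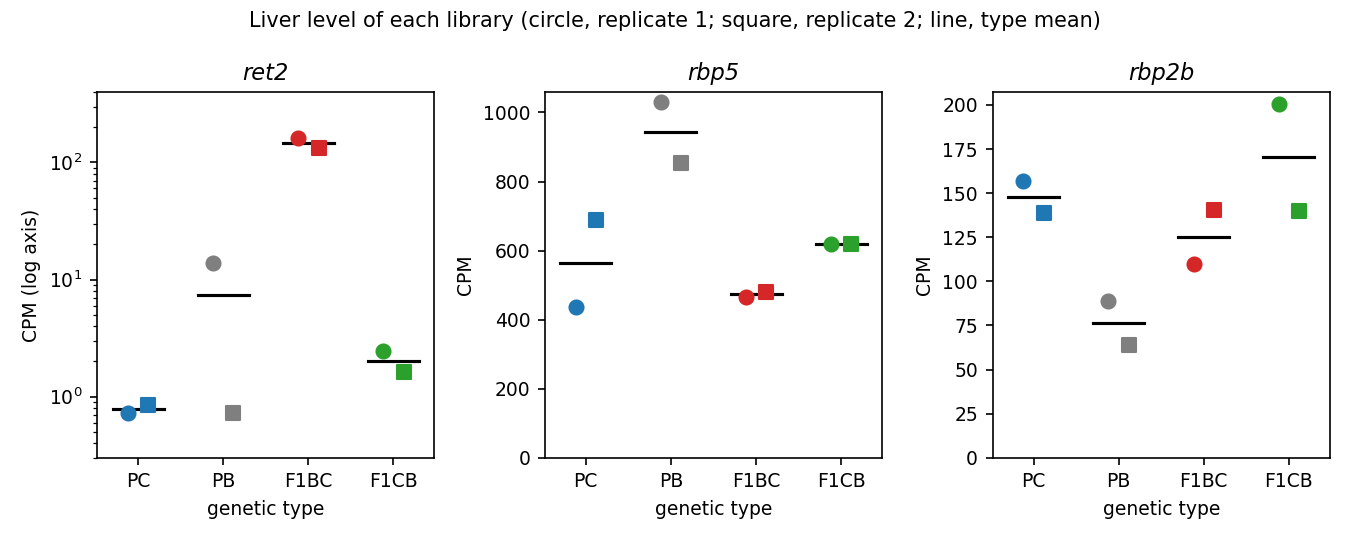
CPM of ret2 (log axis), rbp5 and the ret2 relative rbp2b (linear axes) in each of the 8 livers, with a point per liver and a line at the mean of each type. For ret2 the F1BC livers sit at 161 and 133 CPM and the next library at 13.9 CPM, whereas all rbp5 values lie between 438 and 1029.7 CPM.

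A moderated test from limma on log2(CPM + 0.5) was applied to the 6 pairwise differences, with Benjamini-Hochberg adjustment of p over 13420 genes. A gene was called when its adjusted p was under 0.05 and its absolute log2 fold change over 1.5. Because of the added 0.5, the fold change of a gene as low as ret2 in PC is smaller on this scale than the ratio of its CPM.

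The difference of ret2 between PC and F1BC was -6.83 on the log2 scale (95% interval -8.67 to -4.99, limma adjusted p = 0.00325). It was the second largest in size among all genes, in a comparison where 0.432% of genes were called higher in F1BC. It remained called with each of the 8 libraries left out, between -6.97 and -6.69. Over all genes the median difference was 0.37, higher in PC.

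Between PB and F1BC the difference of ret2 was -5.13 (95% interval -6.96 to -3.29, limma adjusted p = 0.00863), and 1.34% of genes were called higher in F1BC. This call was lost without F1BC replicate 1 (limma adjusted p = 0.0695) or replicate 2 (limma adjusted p = 0.0524), at differences of -4.99 and -5.26. Without PB replicate 1, the PB liver with more ret2, the difference was -6.91. Without PB replicate 2 it was -3.34. Reads of blue catfish were aligned to the channel catfish reference, which can lower PB values, and the part of this here was not tested.

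Between the reciprocal hybrids, which carry the same parental species in opposite roles, the difference F1CB minus F1BC of ret2 had a 95% interval of -7.71 to -4.04 around an estimate of -5.88 (limma adjusted p = 0.0244). It was the largest in size of all genes in a comparison where 0.082% of genes were called higher in F1BC. The call was lost when any single one of the 4 hybrid livers was left out, and also when values were divided by transcript length (-6.01, limma adjusted p = 0.0719). Without F1BC replicates 1 and 2 the limma adjusted p was 0.12 and 0.103, and without F1CB replicates 1 and 2 it was 0.104 and 0.32. The estimate itself stayed between -6.12 and -5.63 with any library left out.

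The other pairs of types could not be separated by ret2. PC minus PB was -1.70 (95% interval -3.54 to 0.13, limma adjusted p = 0.184), and the livers of these types overlapped. The estimate depended on a single PB liver, since it was 0.079 without PB replicate 1, and -3.49 with a limma adjusted p of 0.00589 without PB replicate 2. PC minus F1CB was -0.95 (95% interval -2.79 to 0.88, limma adjusted p = 0.538), although both F1CB livers lay above both PC livers and their mean was 2.57 times as high. PB minus F1CB was 0.75 (95% interval -1.09 to 2.59, limma adjusted p = 0.739), with overlapping livers, and -1.03 without PB replicate 1.

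**Figure D2:**
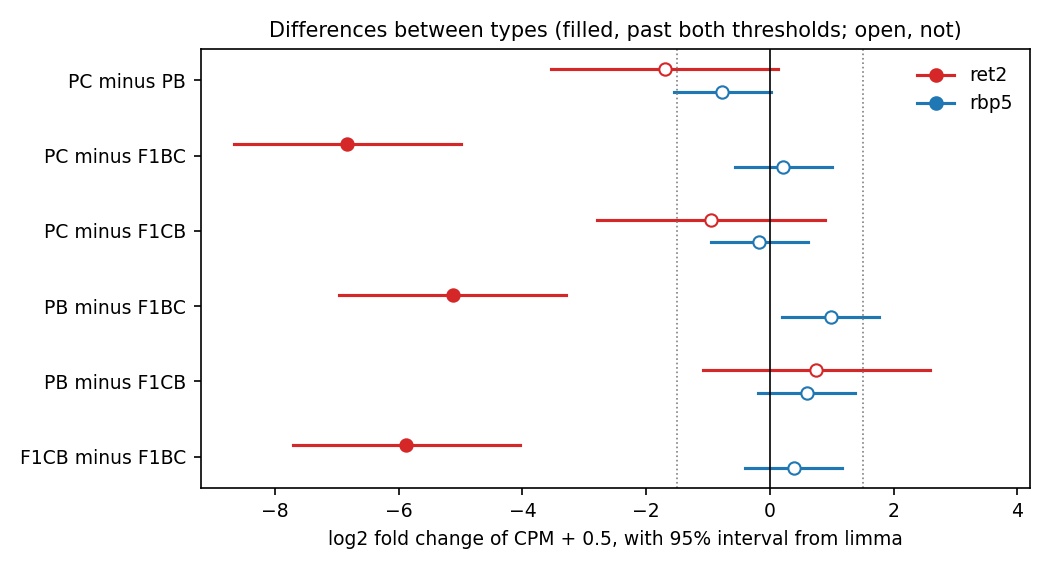
Log2 fold changes of ret2 and rbp5 in the 6 pairwise comparisons, with 95% intervals from limma. Filled points passed both thresholds, and the dotted lines mark a log2 fold change of 1.5 in either direction. The 3 filled points are the ret2 differences of F1BC from PC (-6.83), PB (-5.13) and F1CB (-5.88).

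rbp5 (ENSIPUG00000000053, described in the table as retinol-binding protein 1-like, with a listed transcript of 4972 bases) had 438 and 688 CPM in the PC livers. The PB livers had 1029.7 and 855 CPM. The F1BC livers had 466 and 481 CPM, and the F1CB livers 619.8 and 619.7 CPM. Both PB livers were above all other libraries. By type means the order was PB, F1CB (619.76 CPM), PC (563 CPM) and F1BC (473 CPM). The livers of PC spanned those of both hybrids, while both F1CB livers lay above both F1BC livers. The shares of all genes for which PB, or F1CB against F1BC, stood apart in this way were not computed.

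None of the 6 differences of rbp5 was called. The largest was PB minus F1BC, at 0.99 on the log2 scale (95% interval 0.20 to 1.77, limma adjusted p = 0.167, unadjusted p = 0.0177), where the median over all genes was 0.35, higher in PB. PC minus PB was -0.77 (95% interval -1.56 to 0.01, limma adjusted p = 0.159). PB minus F1CB was 0.60 (limma adjusted p = 0.481), F1CB minus F1BC 0.39 (limma adjusted p = 0.818) and PC minus F1CB -0.17 (limma adjusted p = 0.818). PC minus F1BC was 0.21 (95% interval -0.57 to 0.997, limma adjusted p = 0.773), and its direction turned to -0.20 when the libraries were scaled by the median of ratios.

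The 2 genes did not follow each other. Over the 8 libraries, whose values share a total per library, the Pearson correlation of their log2 values was -0.32. F1BC, the type with the most ret2, had the least rbp5 by its mean.

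Levels of different genes can be set side by side only per length of transcript. A close relative of ret2, rbp2b (ENSIPUG00000007321, described as retinol-binding protein 2-like), was measured at 64.1 to 200.5 CPM and was not called in any pair of types. In the F1BC livers, ret2 stood at 289.9 and 239.7 CPM per kilobase. In the same livers rbp2b had 180.3 and 231 CPM per kilobase, and rbp5 had 93.6 and 96.8 CPM per kilobase. In the PC livers the order was different, with 258 and 229 CPM per kilobase for rbp2b, 88.1 and 138 for rbp5, and 1.31 and 1.54 for ret2. Thus ret2 was the highest of these 3 carriers per kilobase in both F1BC livers and the lowest in all the others. In F1BC replicate 2 its lead over rbp2b was small (239.7 against 231). Its place above rbp5 rests on the listed lengths, 554 bases for ret2 and 4972 for rbp5. In CPM, rbp5 was higher in both F1BC livers (466 and 481 against 161 and 133). Nothing in the sources says how reads shared by ret2 and rbp2b were counted, so the division of reads between them is uncertain.

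Each hybrid was then compared with its mid-parent value, the mean of PC and PB on the log2 scale. F1BC exceeded it for ret2 by 5.98 (95% interval 4.39 to 7.57, limma adjusted p = 0.0083), the largest difference of all genes in size, in a comparison where 0.082% of genes were called higher in F1BC. The call was lost without F1BC replicate 1 (5.84, limma adjusted p = 0.0861) or F1BC replicate 2 (6.12, limma adjusted p = 0.122). In F1CB the difference of ret2 from the mid-parent value was 0.10 (limma adjusted p = 0.975), with no stable direction. It was 0.994 without PB replicate 1, -0.788 without PB replicate 2, -0.14 without F1CB replicate 1 and -0.004 with a pseudocount of 1. On the CPM scale, the F1CB mean of ret2 was 0.50 times the mean of the parents (2.03 against 4.06 CPM) and the F1BC mean 36.2 times. That parental mean leans on PB replicate 1, at 13.9 CPM. For rbp5 the log2 differences were -0.60 in F1BC (limma adjusted p = 0.447) and -0.21 in F1CB (limma adjusted p = 0.851). A hybrid counts as transgressive, in the sense used in the study, when its mean exceeds that of the higher parent by a factor of 1.2 or falls below 0.8 of that of the lower parent. By this rule ret2 was above both parents in F1BC and between them in F1CB, where its mean was 0.277 times that of PB. The class in F1BC held with each library left out, whereas F1CB moved above both parents without PB replicate 1, at 2.57 times the higher parent. rbp5 was transgressive in neither hybrid, and its F1BC mean was 0.841 times that of PC, the lower parent. Without PC replicate 1 that ratio was 0.688, which placed F1BC below both parents. The transgressive rule holds no test, and the share of all genes that it would class so was not computed here. A PB level lowered by alignment to the channel catfish reference would enter both the mid-parent value and this rule, and its part was not tested.

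**Figure D3:**
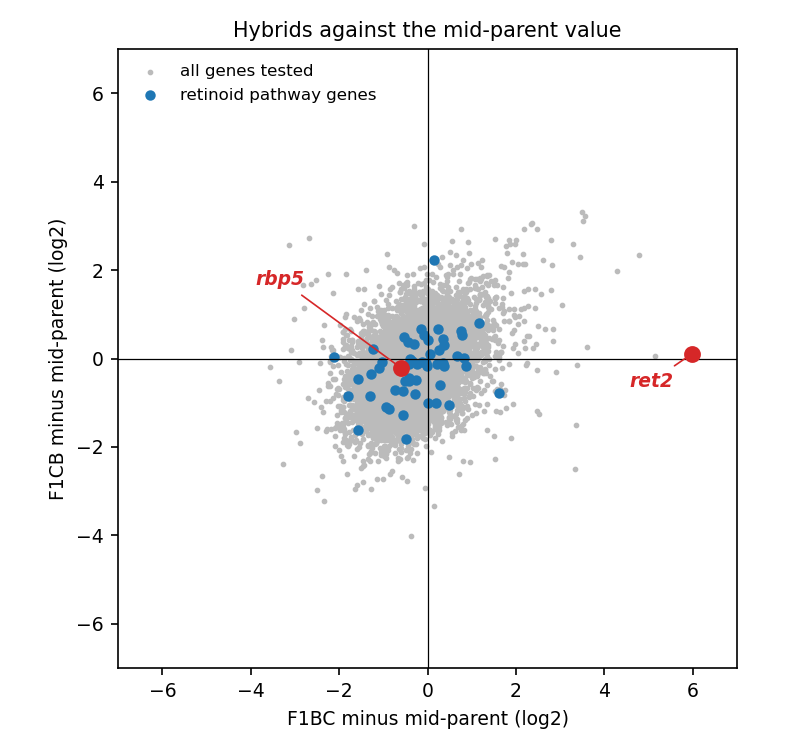
Difference of each hybrid from the mid-parent value on the log2 scale, F1BC on the horizontal and F1CB on the vertical axis, for all genes tested (grey), the retinoid pathway genes (blue) and the 2 binding proteins (red). ret2 lies at 5.98 in F1BC and 0.10 in F1CB, and rbp5 at -0.60 and -0.21, and the direction of both F1CB values changed under alternatives.

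The 4 types also form 2 by 2 combinations of mother and father. With the livers grouped by mother, ret2 differed by -3.79 between channel and blue catfish mothers (standard error 0.60, limma adjusted p = 0.00501), and 0.894% of genes were called higher with blue catfish mothers. An exact permutation test of the same difference over 4 against 4 livers, two-sided, gave p = 0.143, where the smallest possible p was 0.0286. This test moves single livers, although the 2 livers of a type share their cross, so its p is descriptive. The groups overlapped, because PB replicate 2 with its 0.719 CPM was below all livers with channel catfish mothers. With the livers grouped by father, the difference of ret2 was 2.09 between channel and blue catfish fathers (standard error 0.60, limma adjusted p = 0.0524, exact permutation p = 0.371), and it was not called. With a pseudocount of 1, median-of-ratios scaling, the replicate number as a block or PB replicate 1 left out, the difference between fathers was called, at 2.06, 2.16, 2.09 and 2.98.

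The difference of ret2 between fathers was also read for each kind of mother apart. Between fathers ret2 differed by 5.13 among livers with blue catfish mothers and by -0.95 among those with channel catfish mothers. These effects differed by 6.08 (standard error 1.197), which did not pass after adjustment over all genes (limma adjusted p = 0.1). Only 0.0447% of all genes passed in this test, so not passing says little. For rbp5 the difference was -0.58 between fathers (limma adjusted p = 0.176, exact permutation p = 0.0857) and -0.19 between mothers (limma adjusted p = 0.733, exact permutation p = 0.543). Without PC replicate 2, the exact permutation p of rbp5 between fathers was 0.0286, at -0.72. That was the lowest p of the 8 runs with a library left out, and limma did not call rbp5 there.

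Genes with a pattern like that of ret2 were sought among the other 13419 genes by the Pearson correlation of log2 values over the 8 libraries, as a description of libraries that share their totals. Only 6 genes reached a correlation of 0.9, and the median over all genes was -0.229. The 5 highest were ENSIPUG00000024584 (0.98), FABP2 (0.922), vti1b (0.918), fbxo45 (0.918) and ENSIPUG00000022370 (0.911). Over the 6 libraries without F1BC the correlation was 0.98 for the first, and 0.729 for FABP2, 0.542 for vti1b, 0.362 for fbxo45 and 0.63 for ENSIPUG00000022370. These 6 libraries had also served to pick the genes. Among them PB replicate 1 was highest both for ret2 (13.9 CPM) and for the first gene (10.9 CPM). The part of that library in the correlation was not tested. These genes differed in how far they moved. The first had 7.44 to 13.5 CPM in all 8 libraries, and vti1b, which encodes a protein of vesicle fusion, had 13.0 to 17.7 CPM.

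FABP2, the intestinal fatty acid-binding protein of the same superfamily of small lipid carriers, had a range closer to that of ret2. The PC livers had 0.644 and 0.266 CPM of it and the PB livers 16.4 and 4.69 CPM. The F1BC livers had 98.3 and 112 CPM, and the F1CB livers 9.01 and 0.510 CPM. Both F1BC livers were above all others, and of the remaining livers PB replicate 1 was highest, as it was for ret2. FABP2 and fbxo45 were picked by their correlation with ret2 over these same libraries, which favours genes high in F1BC. Their differences below are thus descriptive and no separate support. FABP2 was called higher in F1BC than in PC (-6.82, limma adjusted p = 0.00343) and than in F1CB (-5.09, limma adjusted p = 0.0461), but not than in PB (-3.50, limma adjusted p = 0.057). The call against PC held with each library left out. That against F1CB was lost without either PB liver, either F1BC liver or F1CB replicate 2 (limma adjusted p from 0.0793 to 0.426). The difference from PB was called without either PC liver (0.0454 and 0.044) or either F1CB liver (0.0182 and 0.0171). It was also called with a pseudocount of 1 (0.0381), median-of-ratios scaling (0.0461), the replicate number as a block (0.0096) or the compared types alone (0.00976). Between the parents FABP2 was called higher in PB than in PC (PC minus PB -3.32, limma adjusted p = 0.0214), as 6.69% of all genes were, whereas ret2 was not called. The FABP2 call between the parents was lost without either PC liver or PB replicate 1. fbxo45, which encodes a substrate-binding subunit of a ubiquitin ligase, had 30.4 and 23.8 CPM in F1BC and 2.06 to 6.53 CPM in the other libraries. It was called higher in F1BC than in PC (-2.76, limma adjusted p = 0.0345) and PB (-2.94, limma adjusted p = 0.014), but not than in F1CB (-2.46, limma adjusted p = 0.145). The fbxo45 call against PC was lost without PC replicate 1, either F1BC liver or F1CB replicate 2 (0.0511 to 0.257). That against PB was lost without PB replicate 2 or either F1BC liver (0.0952 to 0.136).

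**Figure D4:**
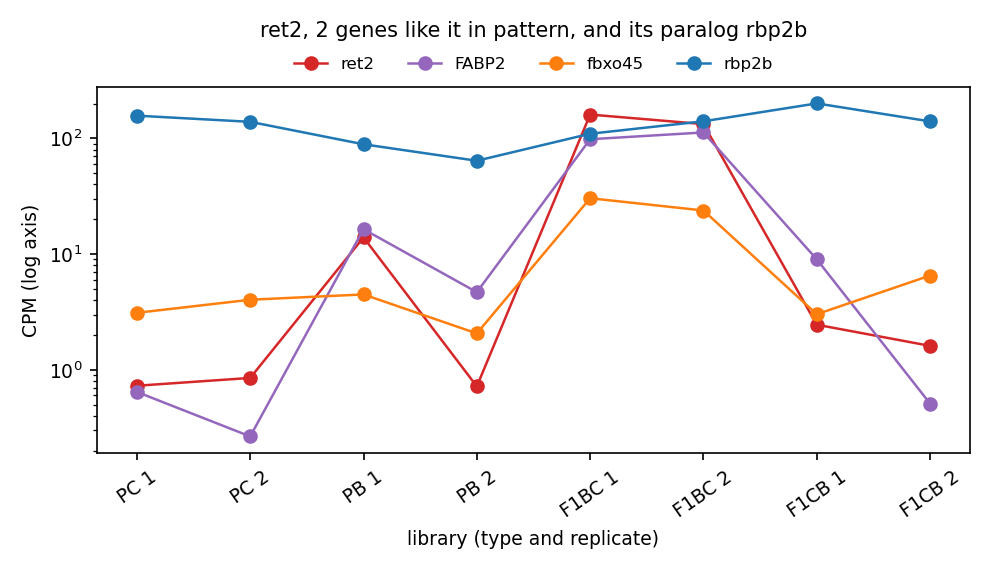
CPM on a log axis in each of the 8 libraries for ret2, for FABP2 and fbxo45, and for the ret2 relative rbp2b. FABP2 follows ret2 up to 98.3 and 112 CPM in F1BC, and rbp2b stays between 64.1 and 200.5 CPM in all libraries.

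The pattern of rbp5 was more common, with 54 genes at a correlation of 0.9 or higher and a median of 0.16 over all genes. The closest were hdac7a (0.9905), a histone deacetylase, DGKD (0.967), a kinase of diacylglycerol, dhr13 (0.963), t120b (0.962) and maff (0.955), a small Maf transcription factor. In all of these, as in rbp5, both PB livers had the most. DGKD had 12.2 and 13.0 CPM in PB and 3.19 to 9.06 CPM elsewhere. None of these 5 genes was called in any pair of types, where 16.6% of all genes were called in at least 1 pair. They were picked by their correlation with rbp5, which was not called either, so this says little about them.

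Because FABP2 and retinol-binding protein 2 are both known from intestinal cells, marker genes of other cell types were read beside ret2. In bulk RNA, a change in the number of cells of a type and a change of RNA per cell cannot be told apart. Of 27 intestinal symbols listed, 6 were in the table, and their summed level was 209 and 206 CPM in F1BC and 57.3 to 150 CPM in the other libraries. Without FABP2 the sum of the other 5 was 110.7 and 93.2 CPM in F1BC, within the 52.6 to 149 CPM of the others. Among the 6, FABP2 alone was called between F1BC and either PC or F1CB. Of all genes, 0.432% were called higher in F1BC than in PC and 0.373% lower, and 0.082% higher than in F1CB. The lack of calls in the other 5 thus says little. Of those 5, tm4sf5 had 73.0 and 56.8 CPM in F1BC and 34.6 to 95.8 CPM elsewhere, and anpepb had 33.6 and 33.3 CPM in F1BC and 11.98 to 45.02 CPM elsewhere. The apolipoprotein gene apoa4a had 2.24 and 1.03 CPM in F1BC and 1.71 to 5.52 CPM elsewhere. Cadherin 17 (cdh17), a defining gene of the intestinal lining, was at 0.334 and 0.595 CPM in F1BC and at 0.495 to 3.58 CPM in the other libraries. The peptide transporter slc15a1b was at 1.54 and 1.502 CPM in F1BC livers, 2.16 and 6.39 CPM in PC livers, 0.122 and 0.00259 CPM in PB livers and 1.498 and 0.506 CPM in F1CB livers. Thus anpepb and slc15a1b were higher in both F1BC livers than in both PB livers, and lower than in both PC livers. The part of other cell types in the ret2 level was not tested further.

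Liver identity was clear from 12 hepatocyte genes, which summed to 157110 to 248690 CPM. By type means apoa1b (ENSIPUG00000007405), fabp10a and ambp were highest in F1BC, but tfa (ENSIPUG00000014853) in PC and cp, f2 and fga in F1CB. The most abundant, wap65-1, had 62423 to 117790 CPM, with its highest type mean in F1BC (112790 CPM) and its highest single value in PB replicate 1. The sum of the 12 was highest in the F1BC livers, at 231610 and 248690 CPM, against 157110 to 203290 CPM elsewhere. The 20 most abundant genes took 28.3 to 39.0% of each library, with both F1BC livers at the top. The part of these in the ret2 and rbp5 levels was not tested. Markers of stellate cells, the vitamin A storing cells of the liver, summed to 669 to 1295 CPM over 13 genes. None of these was called between F1BC and PC or F1CB, which says little where so few genes were called. Against PC, 0.432% of all genes were called higher in F1BC and 0.373% lower. Against F1CB, 0.082% were called higher in F1BC. The sum was lower in every hybrid liver (F1BC 772 and 723 CPM, F1CB 672 and 669 CPM) than in any parental liver. Parental sums ran from 833 CPM (PC replicate 1) to 1295 CPM (PB replicate 2). This difference was not tested, and the share of all genes lower in every hybrid liver was not computed. Of the 833 CPM in PC replicate 1, 408 CPM came from steap4 alone, so its place above the hybrid livers may rest on that gene. The sums without steap4 were not computed. Single markers did not all follow the sums. PC replicate 1 was below every hybrid liver for col1a2 (60.3 against 78.1 to 129 CPM) and dcn (43.6 against 47.5 to 87.3 CPM). For others, such as pdgfrb, both PC livers were above every hybrid liver. For lrata, the PB livers (15.9 and 15.8 CPM) were below the F1BC livers (18.2 and 18.1 CPM), and the PC livers were highest (29.6 and 30.8 CPM). Markers of the exocrine pancreas summed to 926 to 6791 CPM, and 6529 CPM of the highest sum, in PC replicate 1, came from PNLIPRP2 alone. Without that gene the other 10 summed to 262 and 3743 CPM in PC, 1175 and 255 CPM in F1BC and 642.7 to 4148 CPM in the other libraries. The sums ranged from 374 to 1802 CPM for red blood cells and from 1294 to 1968 CPM for bile duct cells.

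The other genes of retinoid handling were taken from a list of pathway genes, of which 56 were in the table, ret2 and rbp5 included, and all 56 were tested. Of these, 13 were called in at least 1 of the 6 pairs of types and 43 in none. These 13 were 23.2% of the list, and 16.6% of all genes were called in at least 1 pair. Between PC and PB, 9 were called higher in PC (16.1% of the list, where 9.12% of all genes were called) and 2 higher in PB (3.57%, where 6.69% of all genes were called). Reads of blue catfish were aligned to the channel catfish reference, which can lower PB values, and the part of this in these calls was not tested. The median difference of the list was -0.19 and that of all genes 0.02. Fewer were called in pairs with a hybrid. Between PC and F1BC there was 1 higher in PC and 2 in F1BC, where 0.373% and 0.432% of all genes were. Between PC and F1CB there were 2 higher in PC, where 0.999% of all genes were. Between PB and F1BC there were 2 in each direction, where 0.939% of all genes were called higher in PB and 1.34% higher in F1BC. Between PB and F1CB none of the 56 was called, where 1.42% of all genes were called in either direction. With 1 library left out, the list counts ranged from 1 to 6 between PC and F1BC (6 without PC replicate 2), from 0 to 7 between PC and F1CB (7 without PC replicate 2) and from 0 to 4 between PB and F1BC (0 without either F1BC liver). Between the hybrids ret2 was the only call of the list, and so it was against the mid-parent value of F1BC.

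Among the 5 cellular binding proteins, ret2 and rabp1 were called in at least 1 pair of types, as were 16.6% of all genes. rabp1, described as cellular retinoic acid-binding protein 1, was measured at 8.88 and 9.22 CPM in the PC livers, at 0.868 and 1.77 CPM in the PB livers, at 0.205 and 0.761 CPM in F1BC and at 4.97 and 2.68 CPM in F1CB. It was higher in PC than in PB (2.44, limma adjusted p = 0.0118) and than in F1BC (3.34, limma adjusted p = 0.0191). The first call was lost without PB replicate 1 (limma adjusted p = 0.0702), and the second without PC replicate 1 (0.0708) or F1BC replicate 1 or 2 (0.124 and 0.0742). Both F1BC livers had the least rabp1 and the most ret2 of all libraries.

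Of the 6 genes of plasma transport and uptake, 4 were called between PC and PB. Of these, 2 were higher in PC and 2 higher in PB, where 9.12% and 6.69% of all genes were. The most abundant was rbp4, the retinol carrier that the liver secretes into plasma, which had 2058 to 3390 CPM (lowest and highest library) and was not called in any pair. Its plasma partner transthyretin (ttr) had 48.9 and 15.8 CPM in PC livers, 121.6 and 152 CPM in PB livers, 165 and 219.95 CPM in F1BC livers and 46.4 and 27.6 CPM in F1CB livers. All livers with blue catfish mothers were above all livers with channel catfish mothers. The difference between mothers was -2.33 (standard error 0.36, limma adjusted p = 0.00474), and it was called with each library left out. ttr was also higher in PB than in PC (-2.27, limma adjusted p = 0.0118) and higher in F1BC than in PC (-2.75, limma adjusted p = 0.0326). The call against PB was lost without PC replicate 2 (-1.47, below the fold threshold) or PB replicate 2 (limma adjusted p = 0.0825). That against F1BC was lost when any single library outside PC was left out, at limma adjusted p-values from 0.0557 to 0.319.

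The surface receptors that take retinol from plasma moved in both directions between the parents. stra6, the retinol receptor of the cell membrane, had 0.336 and 0.298 CPM in PC livers, 3.90 and 9.35 CPM in PB livers, 0.235 and 0.102 CPM in F1BC livers and 0.485 and 1.18 CPM in F1CB livers. It was higher in PB than in PC (-3.01, limma adjusted p = 0.00619) and in F1BC (3.31, limma adjusted p = 0.0144). A relative of it, stra6l, was higher in PC than in PB (2.64, limma adjusted p = 0.00794), as was ENSIPUG00000008371, described as a STRA6 homolog (3.33, limma adjusted p = 0.0297). The stra6 calls were both lost without PB replicate 2 (limma adjusted p = 0.0622 and 0.146), and that against F1BC also without either F1BC liver (0.0942 and 0.133). The stra6l call was lost without PC replicate 1 (0.0559) or PB replicate 1 (0.0612), and that of ENSIPUG00000008371 when any single PC or PB liver was left out (0.051 to 0.12).

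The group of carotenoid cleavage, which can make retinal from plant pigments, and retinol saturation had 2 called genes among 5. Both were called higher in PC than in PB, where 9.12% of all genes were. bco1, described as a beta-carotene dioxygenase-like gene, was listed at 0 in both PB livers, although alignment to the channel catfish reference can lower these. It had 58.0 and 20.1 CPM in PC livers, 0.647 and 3.56 CPM in F1BC livers and 0.290 and 4.37 CPM in F1CB livers. Its difference between PC and PB was called (limma adjusted p = 0.000811), as was that between PC and F1CB (4.14, limma adjusted p = 0.0338). bco1l, with the same description, had 20.6 and 9.11 CPM in PC and 0.644 and 0.00585 in PB. It was higher in PC than in PB (4.23, limma adjusted p = 0.00159) and higher in F1BC than in PB (-2.98, limma adjusted p = 0.038). Between PC and PB both calls held with each library left out. The bco1 call against F1CB was lost without PC replicate 1 (0.179), either PB liver (0.0549 and 0.055) or F1CB replicate 1 (0.167), all limma adjusted p-values. The bco1l call against F1BC was lost when any single one of the 4 livers compared was left out (0.053 to 0.272).

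Between PC and PB, 9.12% of all genes were called higher in PC. Of the 10 receptors through which retinoic acid acts in the nucleus, 4 were called higher in PC than in PB. These were rxrab (3.64, limma adjusted p = 0.00505), rxrbb (2.08, limma adjusted p = 0.011), ENSIPUG00000017734, described as retinoic acid receptor alpha (1.86, limma adjusted p = 0.0254), and RARB (1.85, limma adjusted p = 0.0338). rxrbb was also higher in PC than in F1CB (2.31, limma adjusted p = 0.03). Only the rxrab call between the parents held with each library left out. The limma adjusted p of rxrbb was 0.0822 without PB replicate 2, and in its comparison with F1CB it was 0.119 to 0.183 without PC replicate 1 or either F1CB liver. ENSIPUG00000017734 lost its call without PC replicate 2 or either PB liver (0.0799 to 0.117), and RARB without PC replicate 1 or either PB liver (0.0811 to 0.17). The most abundant of the group, ENSIPUG00000001377, an RXR-gamma-A-like gene, had 117 to 225 CPM and was not called.

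In at least 1 pair of types, 16.6% of all genes were called. Among the enzymes that convert retinol and retinal into each other, only rdh8a was called of 19, higher in PB than in F1BC (2.11, limma adjusted p = 0.0339), with 410.04 and 368 CPM against 93.7 and 86.2 CPM. This call was lost when any single one of the 6 libraries outside PC was left out (limma adjusted p from 0.0626 to 0.194). The most abundant of them was adh8a, an alcohol dehydrogenase, at 5925 to 12758 CPM. Neither gene of retinoic acid synthesis was called (aldh8a1 had 138 to 224 CPM), nor the 1 gene of retinoic acid breakdown, cyp26b1 (4.45 to 22.8 CPM). None of the 4 genes of esterification was called either. Among these, dgat1a had 12.2 to 46.2 CPM, and lrata, the enzyme that makes retinyl esters for storage, had 29.6 and 30.8 CPM in PC and 15.4 to 18.2 CPM in the other types. None of the 4 genes named only for a link to retinoic acid was called, greb1l at 34.1 to 157.9 CPM being the most abundant. By its mean over all libraries bco2a was the most abundant gene of carotenoid cleavage and retinol saturation, with 21.5 to 70.5 CPM, although retsat was higher in both PC livers, at 109.6 and 45.1 CPM against 63.1 and 21.5 CPM. Neither was called.

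**Figure D5:**
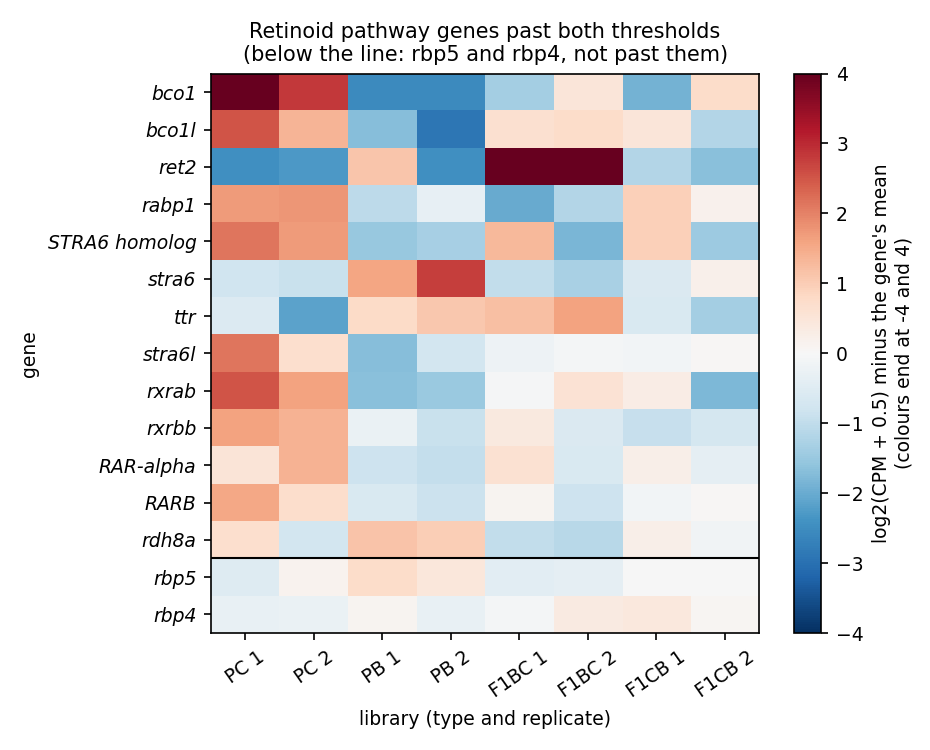
Log2(CPM + 0.5) minus the mean of each gene over the 8 libraries, for the 13 retinoid pathway genes called in any pair of types and, below the line, for rbp5 and rbp4. Red is above and blue below the mean of the gene, and the colours end at -4 and 4. For ret2 both F1BC livers reach the end of the colours, and for rbp5 and rbp4 all libraries stay near the middle.

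Grouped by father, 3 pathway genes were called higher with channel catfish fathers (bco1, bco1l and rxrab), where 2.72% of all genes were, and 1 higher with blue catfish fathers (stra6), where 2.56% were. Grouped by mother, 2 were called higher with channel catfish mothers (bco1 and rabp1), where 2.01% of all genes were, and 2 higher with blue catfish mothers (ret2 and ttr), where 0.894% were. PC and PB stand on opposite sides in both groupings, so a difference between the parental species enters both. bco1, called in both, had 0.647 and 3.56 CPM in F1BC livers and 0.290 and 4.37 CPM in F1CB livers. A call by father or mother is thus not an effect of that parent alone. Between fathers, the calls of bco1 and bco1l held with each library left out. The rxrab call was lost without PB replicate 2 (limma adjusted p = 0.0507), F1BC replicate 2 (0.0636) or F1CB replicate 2 (0.0662), and that of stra6 without these or F1BC replicate 1 (0.054 to 0.0806). Between mothers, those of ret2, ttr and rabp1 held, and bco1 lost its call without PC replicate 1, either PB liver, F1BC replicate 1 or F1CB replicate 2 (0.0551 to 0.0806). The livers of the mothers overlapped for ret2 and did not overlap for ttr.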

How the data were processed

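RNA of 8 catfish livers was analysed, 2 fish from each of 4 genetic types. Per the paper's methods, the authors selected polyadenylated RNA, read it from both ends, trimmed reads (Trimmomatic), aligned them to the channel catfish reference (TopHat) and obtained counts per gene model (BedTools). Blue catfish reads thus had to align to another species, which can lower their values. The genome build and the use of strand in counting are not stated in any source used here. The submitters' processing notes name FastQC 0.11.5, Trimmomatic 0.39, TopHat2 2.1.1, bedtools 2.29.0 and edgeR, which the authors used for scaling and testing.

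The deposited values, called RPKM by the authors, have the properties of CPM, with library totals from 996838 to 998652. The log2 of the mean value minus the deposited column of average log2 values had a median of -0.0089, which became -1.68 after division by transcript length. The deposited log2 column served only for this check. Scaled values carry no read depth, so precision was judged from the spread between livers.

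Differences were tested with limma 3.58.1 in R 4.3.3 on log2(CPM + 0.5), with an intensity trend and all 8 libraries in a single fit, over the 13420 genes whose mean exceeded 1 CPM in any type. The design had assumed RPKM, and the same test was used. The script was tested on simulated data. The members and the gene lists were chosen with earlier results of these data known. Named were ret2 and rbp5, pathway genes called in any pair of types (at most 14), the most abundant member of each group and the 5 genes most correlated with each member. rbp2b, lrata, retsat, PNLIPRP2, steap4 and the intestinal marker genes were named after their values were seen. Alternatives were pseudocounts of 0.1 and 1, no filter or a filter at 5 CPM, median-of-ratios and quantile scaling, division by length, no trend, a replicate block, the compared types alone, and leaving out each library. The rank of the ret2 gap and the FABP2 and fbxo45 differences under them, the class of the hybrids without each library and the pancreatic sum without PNLIPRP2 were added after seeing the data.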

Additional observations from a re-analysis of the deposited data

Results flagged for a closer look

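The difference of ret2 from the mid-parent value was 0.10 in F1CB and 5.98 in F1BC on the log2 scale, so the hybrids differed in this by -5.88 (limma adjusted p = 0.0244). The parents are the same livers in both values, and the difference is that of F1CB minus F1BC. It was called with all livers and lost its call when any single one of the 4 hybrid livers was left out.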

How the results depend on the processing

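With 2 livers per type, leaving out 1 leaves the other to vary as the other types do, and read depth, not given by these values, sets no limit that could be stated. The differences of ret2 between PC and F1BC and between mothers kept their direction and their call in every alternative run, and rbp5 was called by limma in none. With a pseudocount of 1, ret2 differed by -0.004 between F1CB and the mid-parent value and by 2.056 between fathers (limma adjusted p = 0.0357). With median-of-ratios scaling, which moved the median over all genes between PC and F1BC from 0.374 to 0.0103, ret2 differed by 2.163 between fathers (0.0499), and rbp5 by -0.196 between PC and F1BC and by 0.002 between F1CB and the mid-parent value. Divided by transcript length, ret2 differed by -6.01 between F1CB and F1BC (0.0719). Pathway genes called between PC and F1CB, 2 in the report, numbered 1 with a pseudocount of 0.1 or quantile scaling, 4 with the replicate block and 0 with the compared types alone. Between PB and F1CB, 0 in the report, they numbered 1 with median-of-ratios scaling or the replicate block. Between PB and F1BC, 4 in the report, they numbered 2 after division by length or without the trend. Between F1CB and F1BC, 1 in the report, they numbered 0 after division by length and 2 with the compared types alone, and between PC and F1BC, 3 in the report, 1 with the compared types alone. FABP2 between F1CB and F1BC lost its call with a pseudocount of 0.1, a filter at 5 CPM, either other scaling, division by length or no trend (limma adjusted p from 0.0562 to 0.114). Among pathway genes, rdh8a between PB and F1BC lost its call with either other scaling, division by length or no trend (0.0551 to 0.0849), bco1l there with a pseudocount of 1, division by length or no trend (0.052 to 0.0565), and bco1 between PC and F1CB with a pseudocount of 0.1, quantile scaling or the compared types alone (0.053 to 0.057). RARB between PC and PB lost it after division by length (0.0693) or with the compared types alone (0.0783), ENSIPUG00000008371 there with quantile scaling (0.0521), ttr between PC and F1BC without the trend (0.0654) or with the compared types alone (0.117), and stra6 between fathers after division by length (-1.079). With the compared types alone rabp1 (0.0614) and fbxo45 (0.072) between PC and F1BC and rxrbb between PC and F1CB (0.0537) lost theirs. The cause of these changes was not tested. The labels give the replicate number no meaning beyond a count, and the replicate differences of pairs of types correlated between -0.0103 and 0.144 across genes, over 0.1 in 4 of the 6 pairs but not in all, so the numbers were not taken to pair the livers, and a shared source was neither shown nor excluded. With the replicate number as a block, ret2 differed by 2.086 between fathers (0.0173), and no other ret2 or rbp5 call changed. The fit of the compared types alone cannot be made for mothers and fathers, which use all types. With each library left out in turn, ret2 ranged from -3.486 to 0.079 for PC minus PB (0.079 without PB replicate 1), -6.909 to -3.344 for PB minus F1BC, -1.034 to 2.532 for PB minus F1CB (-1.034 without PB replicate 1), -6.118 to -5.633 for F1CB minus F1BC, 5.087 to 6.87 for F1BC minus mid-parent, -0.788 to 0.994 for F1CB minus mid-parent (-0.788 without PB replicate 2 and -0.14 without F1CB replicate 1), and 1.194 to 2.977 between fathers. rbp5 ranged from -0.112 (without PC replicate 2) to 0.539 for PC minus F1BC, from -0.5 to 0.151 (without PC replicate 1) for PC minus F1CB, and in the exact permutation test between fathers from -0.725 to -0.436. Pathway genes called ranged from 6 to 11 between PC and PB, 1 to 6 between PC and F1BC, 0 to 7 between PC and F1CB, 0 to 4 between PB and F1BC, 0 to 2 between PB and F1CB and 0 to 2 between the hybrids.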
